A study of Rattus norvegicus with 19 samples.

Results

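The genes described here are 9 genes of the myelin sheath, Mal, Mbp, Pllp, Mag, Pmp22, Mog, Mobp, Ermn and Gjb1, chosen by symbol. All 9 had a probe on the array, 1 each, of 13316 gene symbols with a probe. All 9 also passed the filter on dim probes, which asked that the detection p-value be under 0.05 for 6 or more of 19 arrays. Mag and Gjb1 were the dimmest by this measure, each detected on 7 arrays. Mag reached the filter through nerve and microtumour arrays alone, and its difference was the same with no filter (−0.13, adjusted p = 2.79e-04, limma).

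Labelled cRNA was hybridized to Illumina rat arrays from 1 microtumour, 12 malignant peripheral nerve sheath tumours (MPNST) and 6 nerve pools, all of the trigeminal nerve, the large sensory nerve of the face. MPNST and the microtumour were induced by N-ethyl-N-nitrosourea (ENU), a carcinogen that alkylates DNA, given to newborn rats on day 1 at a dose of 80 µg per gram. The microtumour, from a male of the congenic strain BDIX.BDIV-Mss4a, is a single animal, and so each statement about it has no replicate check. The MPNST were single tumours of adult rats, 6 male and 6 female. By strain, 7 were F1 hybrids with BDIV and BDIX parents, 2 were BDIX (MPNST 3 and 4), 2 were BDIV (MPNST 11 and 12) and 1 was congenic (MPNST 6). Each nerve array held pooled RNA of untreated rats aged 85 days, with 1 male and 1 female pool of the congenic, BDIX and BDIV strains. Tumours and nerves therefore differed in ENU exposure, pooling and strain mix as well as in tissue. No age in days was given for the tumour rats, so age may have differed too. The spread between nerve arrays is one between pools, and no nerve pool came from an F1 hybrid.

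Myelin is the stack of membrane that Schwann cells wrap around axons in peripheral nerves and that oligodendrocytes wrap around axons in the brain and spinal cord. Compact myelin is held together by adhesive and positively charged proteins such as Mbp and Pmp22, while Mal and Pllp are small tetraspan proteins that move with lipid-rich membrane to the sheath. Mag sits on the membrane facing the axon, and Gjb1 forms the gap junctions of non-compact Schwann cell myelin. The label of peripheral myelin does not suit every gene: Mog, Mobp and Ermn are known chiefly from oligodendrocytes. Schwann cells that lose contact with their axon are known to switch their myelin genes off.

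The arrays differed in ways that the groups do not explain. A raw signal at the 25th percentile of 59.0 to 67.5 was found on 8 arrays (the microtumour, 3 MPNST and 4 nerve pools) and one of 80.4 to 94.6 on 11 arrays (9 MPNST and 2 nerve pools), called low-background and high-background arrays below. Probes were detected at 44.1% to 54.1% of all probes per array, and values are log2 intensities after background correction and quantile normalization. An offset of 16 draws dim values together near 7.2 on this scale, which makes a fold change against a dim value smaller than the ratio of the signals. Differences were tested in a limma fit of all 19 arrays, two-sided, with p-values adjusted by Benjamini and Hochberg's method over 11796 features and a threshold of 0.05. Among all features, 20.8% were lower and 24.6% higher in MPNST than in nerve (45.4% in either direction), and the median difference was 0.02.

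The 250 bases upstream of the gene start are shown for Mal, Pllp, Pmp22 and Mag. Of these, Mag holds a match to a transcription factor motif. The windows of Mbp, Mobp and Gjb1 were searched but are not shown. RefSeq sequence of the GRCr8 assembly was found for 7 of the 9 genes (Mog and Ermn were not matched), in 8 windows, since Mbp has 2 starts. Mal lies at chr3:135341424-135341673 on the minus strand and Pllp at chr19:10320830-10321079 on the plus strand, both for genes strongly lower in MPNST. Pmp22 lies at chr10:48294682-48294931 on the plus strand, for a gene that stayed bright in every tumour. Mag lies at chr1:95291045-95291294 on the minus strand. The capitals in the window of Mag mark the letters ACAAAG, read on the opposite strand, a core of the motif bound by SOX factors such as Sox10. Each window is written 5′ to 3′ and ends at the base before the gene start.
Mal: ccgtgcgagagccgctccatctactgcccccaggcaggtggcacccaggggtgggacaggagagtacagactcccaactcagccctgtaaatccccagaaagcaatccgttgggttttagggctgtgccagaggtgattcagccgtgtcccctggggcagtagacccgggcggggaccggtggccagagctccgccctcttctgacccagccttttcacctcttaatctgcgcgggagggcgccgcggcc
Pllp: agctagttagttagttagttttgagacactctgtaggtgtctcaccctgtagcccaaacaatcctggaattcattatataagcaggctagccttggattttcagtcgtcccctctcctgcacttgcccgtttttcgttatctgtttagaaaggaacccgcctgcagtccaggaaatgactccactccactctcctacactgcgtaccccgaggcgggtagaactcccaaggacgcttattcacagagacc
Pmp22: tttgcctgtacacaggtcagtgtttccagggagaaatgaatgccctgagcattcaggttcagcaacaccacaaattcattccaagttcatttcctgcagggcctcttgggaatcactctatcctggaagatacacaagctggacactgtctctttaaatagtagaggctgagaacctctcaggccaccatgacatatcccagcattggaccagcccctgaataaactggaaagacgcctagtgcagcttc
Mag: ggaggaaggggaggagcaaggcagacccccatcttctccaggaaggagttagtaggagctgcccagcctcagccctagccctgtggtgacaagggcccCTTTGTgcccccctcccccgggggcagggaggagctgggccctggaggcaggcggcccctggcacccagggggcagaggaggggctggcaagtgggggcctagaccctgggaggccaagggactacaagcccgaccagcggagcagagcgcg
Searched on both strands, ACAAAG occurred in the windows of Mag (1 match), Mobp (8 matches) and the inner start of Mbp (1 match), and in 16.3% of 33469 rat gene windows of the same length. The letters GTGGGCG, a core of the motif of EGR factors such as Egr2, occurred in none of the 8 windows and in 6.27% of all windows. These counts describe letters in the windows and were tested against nothing.

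Of the 9 genes, 8 were lower in MPNST than in nerve at an adjusted p under 0.05 in limma, none was higher, and Gjb1 was not called. One of the 8, Mag, was detected in no MPNST and passed the filter through the groups in which it is brighter. With a detection limit of 0.01 in place of 0.05, which left out Mag and Gjb1, the count was 7 of 7. Beside the count of 8 of 9 stands the background of 20.8% lower among all features tested. The share of all features was not counted at the detection limit of 0.01. The median difference of the 9 genes was −0.88, against 0.02 for all features. In 4 genes (Mal, Mbp, Pllp and Ermn) every MPNST was below every nerve pool, a separation in that direction found in 8.59% of features. These 4 were also the genes lower by at least 2-fold, beside 6.59% of features. In a piece of tissue, fewer myelinating cells and less RNA per myelinating cell cannot be told apart.

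**Figure D1:**
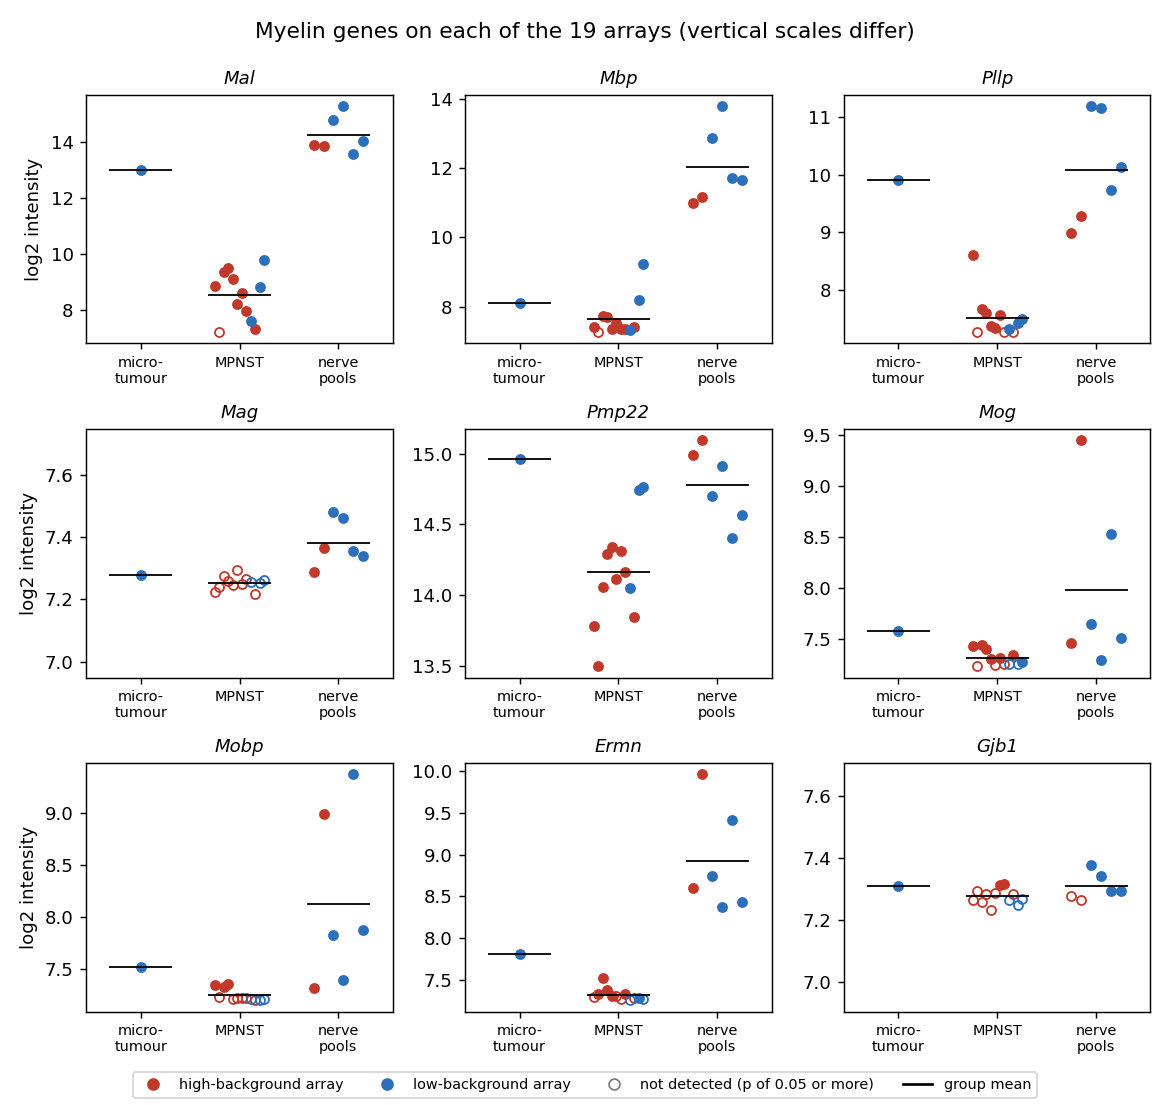
Log2 intensity (vertical axes, which differ between panels) of the 9 myelin genes in the microtumour, 12 MPNST and 6 nerve pools; points are arrays, coloured by background range, open where the probe was not detected, and lines are group means. Mal, Mbp, Pllp and Ermn show MPNST below all nerve pools, whereas Pmp22, Mog, Mobp, Mag and Gjb1 overlap.

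Mal encodes a lipid-raft protein of compact myelin and of other polarized membranes, and it had the largest difference of the 9. Its level was 7.22, 8.74 and 9.81 (lowest, median and highest) in 12 MPNST and 13.56, 13.98 and 15.29 in 6 nerve pools. The gap between the brightest tumour and the dimmest pool was wide, and the probe was still detected in 11 of 12 MPNST. Mal averaged 8.55 ± 0.87 in MPNST (SD, n = 12) and 14.24 ± 0.66 in nerve (SD, n = 6). The difference was −5.69 ± 0.39 (SE), 51.8-fold lower in MPNST (adjusted p = 5.50e-09, limma). In nerve the raw signal of Mal was 22.5% to 100% of the array's highest raw signal, and in nerve 4 it was that highest signal, and the part of saturation in the fold was not tested.

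Mbp encodes myelin basic protein, which binds the inner faces of the compact myelin membranes together. Its level was 7.26, 7.42 and 9.23 (lowest, median and highest) in MPNST and 10.98, 11.69 and 13.78 in nerve pools. The tumours lay close to the lower end of the scale except the 2 BDIV tumours, MPNST 11 at 8.18 and MPNST 12 at 9.23. Mbp differed by −4.37 ± 0.37 (SE), 20.7-fold lower in MPNST (adjusted p = 6.91e-08, limma).

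Pllp encodes plasmolipin, a tetraspan proteolipid of the myelin membrane. Its level was 7.27, 7.39 and 8.60 (lowest, median and highest) in MPNST and 8.99, 9.93 and 11.19 in nerve pools. One tumour stood above the others, MPNST 1, an F1 hybrid tumour, with a level of 8.60 against 7.67 in the next highest, and it still lay below all pools. Pllp differed by −2.56 ± 0.29 (SE), 5.90-fold lower in MPNST (adjusted p = 2.27e-06, limma), and it was detected in 9 of 12 MPNST.

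The sizes depend on the treatment of dim values: in the authors' values, floored at 1, Pllp differed by −4.44. These 3 genes were lower in MPNST within each background range. For Mal the difference was −5.67 within the low-background arrays and −5.40 within the high-background arrays. For Mbp it was −4.26 within the low-background arrays and −3.61 within the high-background arrays. For Pllp it was −3.14 within the low-background arrays and −1.58 within the high-background arrays. The size for Pllp thus moved by more than 1.5 times between ranges. The high-background nerve arrays were the 2 congenic pools, so strain and background range cannot be told apart in such moves. In arrays of 1 strain, compared as values with no test, Mal differed by −5.59 in BDIX, −4.48 in BDIV and −5.64 in the congenic strain. Mbp differed by −5.61 in BDIX, −2.98 in BDIV and −3.55 in the congenic strain.

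Pmp22 encodes a tetraspan glycoprotein of compact myelin that is also made outside myelin, and its gene dosage is the cause of common inherited neuropathies. It was bright throughout: its level was 13.50, 14.14 and 14.77 (lowest, median and highest) in MPNST and 14.41, 14.81 and 15.09 in nerve pools. The groups overlapped, with MPNST 11 and 12 at 14.74 and 14.77, inside the range of the pools. Pmp22 differed by −0.61 ± 0.16 (SE), 1.53-fold lower in MPNST (adjusted p = 5.43e-03, limma). This call depended on which arrays entered. The difference was −0.997 within the high-background arrays (adjusted p = 0.0035) and −0.127 within the low-background arrays (adjusted p = 0.708). It was −0.37 with sex and strain as covariates (adjusted p = 0.167) and −0.38 without the F1 hybrids (adjusted p = 0.123). The high-background nerve arrays were the 2 congenic pools, and the low-background MPNST were 2 BDIV tumours and 1 F1 hybrid. Strain and background range therefore cannot be told apart in the gap between the ranges. The raw signal of Pmp22 was 19.3% to 89.5% of the array's highest raw signal in MPNST and 78.6% to 86.3% in nerve pools, and the part of saturation in the small difference was not tested.

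**Figure D2:**
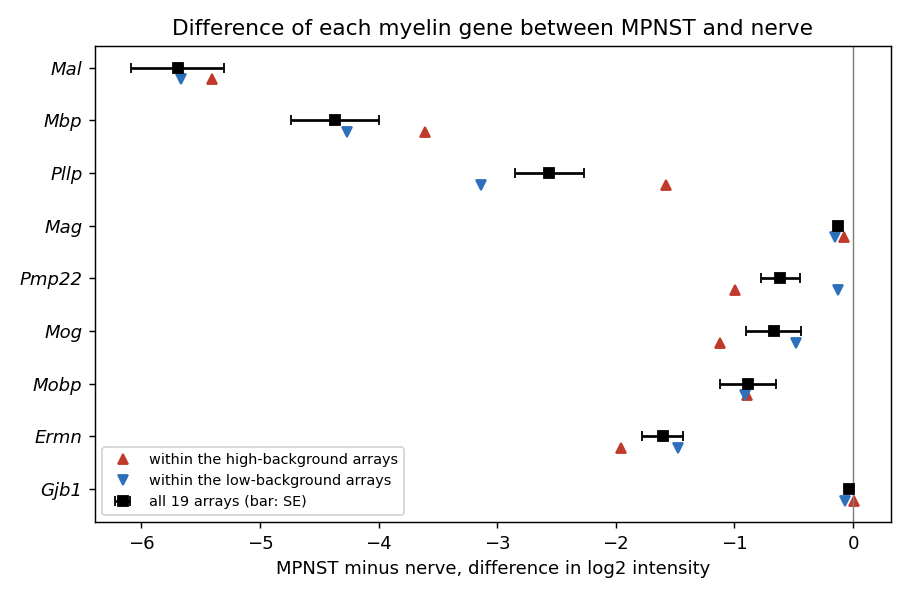
MPNST minus nerve difference in log2 intensity (horizontal axis) for each myelin gene; squares with SE bars are the fit of all 19 arrays and triangles the same difference within the high-background or the low-background arrays. Mal, Mbp, Pllp and Ermn lie left of 0 in both ranges, while Pmp22 lies at −0.997 in the high and −0.127 in the low range.

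Mag encodes a sialic acid binding adhesion protein of the membrane next to the axon. Its probe was detected in none of 12 MPNST, in the microtumour and in all 6 nerve pools. The levels were 7.22 to 7.29 in MPNST and 7.29 to 7.48 in nerve, a difference of −0.13 ± 0.02 (SE, adjusted p = 3.86e-04, limma). With MPNST not above background, the nerve pools can be called at least 1.08-fold higher on this scale, where the offset draws dim values together. The probe was thus dim in nerve itself: in the authors' deposited intensity it read −9.66 to 21.8 in MPNST and 25.8 to 118 in nerve pools. Floored at 1, those values differed by −3.29 in log2, so the size depends on the treatment of dim values. The call was lost within either background range (−0.15 with adjusted p = 0.0611 in the low range and −0.08 with adjusted p = 0.0744 in the high range).

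Gjb1 encodes connexin 32, the gap junction protein of the Schwann cell. Its level was 7.23, 7.28 and 7.32 (lowest, median and highest) in MPNST and 7.26, 7.29 and 7.38 in nerve pools, and it was detected in 2 of 12 MPNST and 4 of 6 nerve pools. Gjb1 differed by −0.03 ± 0.02 (SE, adjusted p = 0.190, limma), close to the lower end of the scale in both groups. At this signal a change was not detectable, which does not show that there was none.

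Ermn encodes ermin, an actin-binding protein of the oligodendrocyte's cytoplasm. Its level was 7.25, 7.29 and 7.52 (lowest, median and highest) in MPNST and 8.37, 8.68 and 9.97 in nerve pools. The probe was detected in 6 of 12 MPNST. The groups did not overlap, and Ermn differed by −1.61 ± 0.17 (SE), 3.04-fold lower in MPNST (adjusted p = 1.31e-06, limma).

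Mobp encodes a small basic protein of compact central myelin. Its level was 7.20, 7.22 and 7.35 (lowest, median and highest) in MPNST, detected in 3 of 12, and 7.32, 7.85 and 9.38 in nerve pools. Nerve 2 at 8.99 and nerve 5 at 9.38 stood above the other pools, and nerve 1 at 7.32 lay within the range of the tumours. Mobp differed by −0.88 ± 0.23 (SE, adjusted p = 0.00488, limma). Mog encodes an immunoglobulin-like protein on the outermost face of the central sheath. Its level was 7.24, 7.29 and 7.44 (lowest, median and highest) in MPNST and 7.30, 7.59 and 9.45 in nerve pools. It too was highest in nerve 2 (9.45) and nerve 5 (8.53), and the groups overlapped. Mog differed by −0.67 ± 0.23 (SE, adjusted p = 0.0241, limma). The call of Mog was lost with sex and strain as covariates (adjusted p = 0.116), without the F1 hybrids (adjusted p = 0.202) and within the low-background arrays (adjusted p = 0.283). That of Mobp was lost without the F1 hybrids (adjusted p = 0.102) and within the low-background arrays (adjusted p = 0.217).

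Since most tumours were near the lower end of the scale for these 3 genes, the sizes depend on the treatment of dim values. In the authors' values, floored at 1, the difference was −4.62 for Ermn, −6.42 for Mobp and −3.20 for Mog, each over 1.5 times the size given above. Those values name the other BDIV pool as the high one, since their columns of nerve 5 and nerve 6 are exchanged against the raw table: Mobp was at 257.4 in nerve 5 and 828.9 in nerve 6. Nerve 5, the male pool, is named here from the raw table.

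The same 2 pools, a congenic female pool and a BDIV male pool, were also the highest of the 6 for other genes of these cells. They were the highest pools for 7 of 9 tested oligodendrocyte markers, Mog, Mobp and Ermn included, and for 3 of 4 astrocyte markers. Aspa, Cnp and Slc1a2 were the exceptions: Cnp was highest in nerve 4 (14.28) and at 12.14 in nerve 5. Klk6, a protease of mature oligodendrocytes, was at 10.17 in nerve 2 and 9.74 in nerve 5, and at 7.32 to 7.99 in the other pools. Nkx6-2, a transcription factor of the oligodendrocyte lineage, was at 8.21 in nerve 2 and 7.82 in nerve 5, and at 7.26 to 7.41 in the others. Aqp4, the water channel of astrocyte end-feet, was at 7.92 in nerve 2 and 7.55 in nerve 5, with the others at 7.29 to 7.33. Over the 9 measured oligodendrocyte markers, 3 of which are Mog, Mobp and Ermn themselves, the mean level was 7.83 to 8.88 in MPNST and 8.44 to 9.77 in nerve pools. That mean includes Olig1, which spread from 7.20 to 14.67 in MPNST and from 7.30 to 9.07 in nerve pools. Olig1 differed in the other direction and was not called (1.70 ± 1.25, SE, adjusted p = 0.28, limma). The part of these cells in the differences of Mog, Mobp and Ermn was not tested directly. Without nerve 2 and nerve 5, chosen as arrays to leave out after their values were seen, Ermn differed by −1.22, Mobp by −0.36 (adjusted p = 0.00264) and Mog by −0.17 (adjusted p = 0.0242). Each kept its direction, with Mog and Mobp at less than their full difference by over 1.5 times. Without nerve 2 alone Mog differed by −0.38 (adjusted p = 0.0309), and without nerve 5 alone by −0.56, no longer called (adjusted p = 0.0723).

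**Figure D3:**
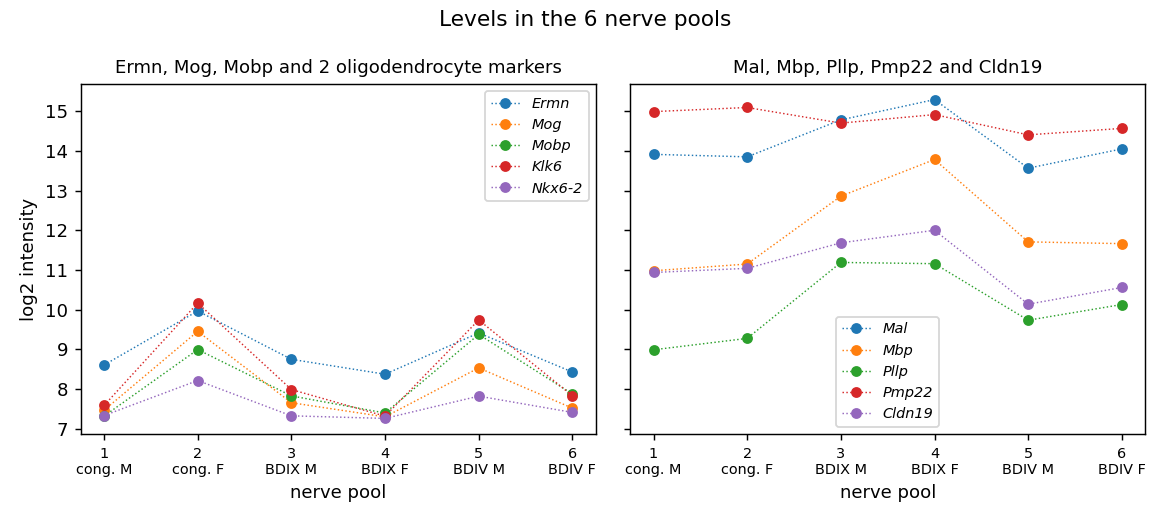
Log2 intensity (vertical axis) in the 6 nerve pools, male (M) and female (F) of the congenic (cong.), BDIX and BDIV strains, of Ermn, Mog, Mobp and the oligodendrocyte genes Klk6 and Nkx6-2 (left) and of Mal, Mbp, Pllp, Pmp22 and Cldn19 (right); dotted lines join the points of a gene for the eye. Nerve 2 and nerve 5 are high for the genes on the left, whereas nerve 3 and nerve 4 are high for Mal, Mbp, Pllp and Cldn19.

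Across the nerve pools 2 patterns were seen, and Pmp22 followed neither. Mal, Mbp, Pllp and Mag were highest in the BDIX pools, nerve 3 and nerve 4: Mbp was at 12.86 and 13.78 there, at 11.71 and 11.66 in the BDIV pools and at 10.98 and 11.15 in the congenic pools. Pairwise Pearson's r over the 6 pools was 0.92 for Mal and Mbp, 0.94 for Mbp and Pllp, and 0.92 for Pllp and Mag. Gjb1, near the lower end of the scale, was also highest in nerve 3 (7.38) and nerve 4 (7.34), with r of 0.93 with Pllp. Ermn, Mog and Mobp followed nerve 2 and nerve 5 instead, with r of 0.99 for Mog and Ermn and 0.86 for Mog and Mobp. Between the patterns r was below 0, for instance −0.49 for Mbp and Mog. Pmp22 was highest in the congenic pools, at 14.99 and 15.09, with r of −0.09 with Mbp and 0.16 with Mog. These correlations are a description of 6 arrays that share 3 strains and 2 background ranges.

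Strain within nerve was tested with sex as a covariate, from 2 pools of each strain. In BDIV against BDIX pools, both in the low-background range, 3 of the 9 genes were lower at an adjusted p under 0.05, beside 13.4% of all features called in either direction. Pllp differed by −1.24 ± 0.13 (SE, adjusted p = 0.0317, limma), Mal by −1.23 ± 0.19 (SE, adjusted p = 0.0497) and Pmp22 by −0.32 ± 0.04 (SE, adjusted p = 0.0397). Mbp differed by −1.64 ± 0.29 and was not called (adjusted p = 0.0626). The calls were fragile: leaving out 1 pool at a time left 0 to 2 of them, and exchanging the signals of nerve 5 and nerve 6, whose deposited columns disagree about which pool is which, left 0. In congenic against BDIX pools, Pllp alone was called lower (−2.04 ± 0.13, adjusted p = 0.0435), beside 2.59% of features, and no call was left without any 1 pool. The congenic pools were the high-background nerve arrays, so strain and background range cannot be told apart there.

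Sex was tested in each tissue with strain as a covariate. In limma, 0 of 9 genes were called between male and female MPNST and 0 between male and female nerve pools, and 0 of all features were called in either tissue. At an unadjusted p under 0.05 the counts were 0 of 9 in MPNST and 1 of 9 in nerve. The lowest adjusted p was 0.754 in MPNST and 0.884 in nerve.

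Strain within MPNST gave 1 call among the 9 genes in an F test over strains, Mbp with an adjusted p of 0.034, beside 2.66% of all features. Mbp was higher in the 2 BDIV tumours than in the 7 F1 tumours, by 1.40 ± 0.20 (SE, adjusted p = 0.0167, limma; 5.3% of features were called in that contrast). Both BDIV tumours were low-background arrays and 6 of the 7 F1 tumours were high-background arrays. The F1 tumour on a low-background array, MPNST 9, had a Mbp level of 7.31. With background range as a block the strain call was lost, and it was lost without MPNST 3, 4, 7, 8 or 10. Between the 2 BDIX tumours and the F1 tumours 0 of 9 genes were called in limma, 1 had an unadjusted p under 0.05, and 0.0509% of features were called. The gap between MPNST and nerve itself was set against strain in an interaction of BDIV with BDIX. In it 8.82% of features and, among the 9 genes, Pmp22 alone were called (0.96 ± 0.16, adjusted p = 0.0467). This interaction was not repeated in the alternatives.

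Over the 12 tumours Mbp was compared with each of the other 8 genes, with 100000 permutations and Benjamini-Hochberg adjustment over the 8 pairs. Pearson's r with Mbp was 0.72 for Pmp22 (permutation p = 0.00393, adjusted p = 0.0314), while Spearman's rho was 0.50 (permutation p = 0.106, adjusted p = 0.309). Without MPNST 11 and MPNST 12, the tumours farthest from the median of Mbp, r for Pmp22 was 0.32, so that the relation rested on these 2 BDIV tumours. For Mal r was 0.62 (permutation p = 0.0126, adjusted p = 0.0504) and rho was 0.71 (permutation p = 0.0114, adjusted p = 0.0909), and r was 0.70 without MPNST 11 and MPNST 12. No other gene had an adjusted p under 0.05. The same omission moved r with Mbp the other way for Mog (0.71 without these tumours, −0.06 with them), Mobp (0.71 without and −0.09 with) and Ermn (0.76 without and −0.05 with). Apart from Mbp, r over the 12 tumours was 0.85 for Mog and Mobp and 0.73 for Pllp and Mobp, all dim values in which MPNST 1, 3 and 4 were high.

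The genes most like the mean of the 9 genes' z scores over the 12 tumours were Fabp7 (r = 0.92), a fatty acid binding protein of glial cells, Ptgds (r = 0.91), a prostaglandin synthase, and Cntf (r = 0.90), a neurotrophic factor of myelinating Schwann cells. They were followed by Kcnk1 (r = 0.90), Pdpn (r = 0.88), Clec2l (r = 0.88), Commd10 (r = 0.87) and Snap91 (r = 0.87). Cntf differed by −4.52 between MPNST and nerve (adjusted p = 1.79e-09, limma), and Ptgds by −5.11 (adjusted p = 8.83e-05). Fabp7 differed by −1.55 and was not called (adjusted p = 0.206). The genes most like Mbp alone were Gpd1 (r = 0.98), Mylip (r = 0.96), Usp11 (r = 0.96), Sucnr1, Rgr, Lgi1 and Slc43a3 (r = 0.95 each) and Tmprss5 (r = 0.94). Several of these rested on the BDIV tumours: without MPNST 11 and MPNST 12, r was 0.71 for Gpd1, 0.86 for Sucnr1, 0.06 for Rgr and 0.13 for Tmprss5. These likenesses were picked as the highest of all named features and were not tested. The mean z score gives equal weight to Mag, Gjb1 and Mobp, whose probes were detected in 0, 2 and 3 of 12 MPNST.

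The single microtumour resembled nerve for some of the genes and MPNST for others. In limma, whose test assumes that this array varies like the others, 1 of 9 genes was called lower and 0 higher against nerve, and 2 of 9 were called higher against MPNST. Of all features, 1.21% were lower and 1.83% higher in the microtumour than in nerve (3.04% in all), and 1.72% were higher than in MPNST (2.72% in either direction). These comparisons share their arrays with the one between MPNST and nerve.

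Mal was at 13.01 in the microtumour, above all 12 MPNST, with a difference of −0.56 from the lowest nerve pool. It was 4.46 ± 0.81 (SE) higher than in MPNST (adjusted p = 0.0053, limma) and differed from nerve by −1.23 ± 0.84 (adjusted p = 0.592). The call against MPNST was lost in the authors' values (adjusted p = 0.247) and within the low-background arrays (adjusted p = 0.129). Pllp was at 9.90, above all 12 MPNST and inside the range of the nerve pools. It was 2.38 ± 0.61 (SE) higher than in MPNST (adjusted p = 0.0444), a call that was lost in 13 of 18 fits that left out 1 other array. Mbp stood apart from both, at 8.10 in the microtumour, with a difference of −2.88 from the lowest nerve pool. It was above 10 of 12 MPNST and below both BDIV tumours. It differed from nerve by −3.92 ± 0.80 (SE, adjusted p = 0.0111, limma) and from MPNST by 0.45 ± 0.77 (adjusted p = 0.853), with a sign that turned with background range as a block (−0.32) and within the low-background arrays (−0.14). The call against nerve was lost in the authors' values (adjusted p = 0.282), within the low-background arrays (adjusted p = 0.132) and without the F1 hybrids (adjusted p = 0.0749). The missing calls do not show that levels were alike.

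On a scale with the nerve mean at 0 and the MPNST mean at 1, the microtumour lay at 0.22 for Mal, 0.07 for Pllp, 0.90 for Mbp and 0.69 for both Ermn and Mobp. Pmp22 was at 14.96 in the microtumour, inside the range of the nerve pools and above all MPNST, with a difference from nerve of 0.18 ± 0.36 (adjusted p = 0.931). That small difference was −0.61 with median scaling and −0.73 in the authors' values. The placement depended on the normalization too. In the authors' values the microtumour, at 18627, lay below the highest MPNST (23693) and below the lowest nerve pool (18694). Ermn was at 7.81, above all MPNST and below all nerve pools, and differed from nerve by −1.12 ± 0.38 (SE, adjusted p = 0.134). Mog and Mobp were at 7.58 and 7.52, inside the range of the pools and above the highest MPNST by only 0.14 and 0.17. Neither was called against MPNST (adjusted p = 0.862 and 0.86, limma). The share of all features in which the microtumour lay above every MPNST was not counted. Marker means placed the microtumour differently by cell type. For the 9 measured neuron and axon genes the mean was 12.35 in the microtumour, 7.78 to 10.1 in MPNST and 12.6 to 13.6 in nerve. For 4 macrophage genes it was 11.1, against 10.7 to 12.5 in MPNST and 8.28 to 9.86 in nerve. For 2 genes of the myelinating Schwann cell it was 10.1, against 8.38 to 9.33 in MPNST and 10.99 to 12.95 in nerve. The part of nerve tissue within the microtumour sample was not tested.

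**Figure D4:**
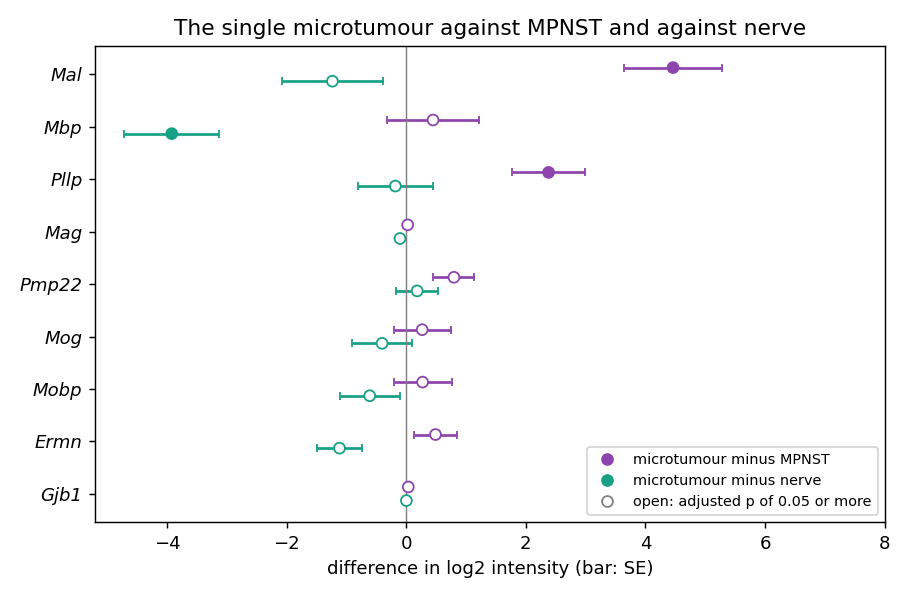
Difference in log2 intensity (horizontal axis) of the single microtumour against MPNST and against nerve for each myelin gene, with SE bars from the fit of all 19 arrays; filled points had an adjusted p under 0.05. Mal and Pllp lie at 4.46 and 2.38 against MPNST, and Mbp at −3.92 against nerve.

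Other genes of myelin and its making were taken from a list of 55 genes by role, of which 40 were matched to a probe by symbol and 37 passed the filter; the rest were not analysed here. In MPNST against nerve 22 of the 37 were lower, 6 were higher and 9 were not called, beside 20.8% lower and 24.6% higher among all features. The median difference was −0.53, against 0.02 for all features. Cntn2 (−0.17), counted as lower, was detected in 0 of 12 MPNST and 6 of 6 nerve pools, and so reached the filter without any MPNST. Nab1 (−0.09), counted as lower, was detected in 1 of 12 MPNST and 5 of 6 nerve pools. Nfasc (−0.12) and Aspa (−0.20), counted as lower, and Pou3f1 (0.17), counted as higher, also lay near the lower end of the scale in both groups. In the microtumour 2 of the 37 were called against nerve (3.04% of all features), Cldn19 lower (−2.21, adjusted p = 0.00599) and Gpr37 higher (2.34, adjusted p = 0.0295). One was called against MPNST (2.72% of all features), Ugt8 (2.58 ± 0.66, adjusted p = 0.0432). The only compact myelin gene besides the 9 that was tested, Cldn11, was not called (0.38 ± 0.35, adjusted p = 0.399).

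Among 14 genes of non-compact myelin and of the contact with the axon, 9 were lower, 1 was higher and 4 were not called. The dim Cntn2 and Nfasc are among the 9. Cldn19, a tight junction protein of Schwann cells, differed by −3.66 ± 0.19 (SE, adjusted p = 1.98e-10, limma). Cadm3, an axonal adhesion protein that binds the Schwann cell, differed by −3.69 ± 0.39 (adjusted p = 9.96e-07). Gldn, gliomedin, which gathers sodium channels at the node of Ranvier, differed by −3.38 ± 0.37 (adjusted p = 1.56e-06). Cdh1, the cadherin of the sheath's own junctions, and Itgb4, the laminin receptor of its outer surface, differed by −1.79 and −2.06 (adjusted p = 9.49e-06 and 9.83e-05). Ncam1, an adhesion molecule of Schwann cells without myelin, was higher (0.66 ± 0.10, adjusted p = 3.67e-05). Cnp, an enzyme of the sheath's cytoplasmic channels, was not called (−0.11 ± 0.30, adjusted p = 0.784).

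For myelin lipids, 4 of 5 genes were lower, the dim Aspa included, and 1 was not called. Ugt8, which makes galactosylceramide, the typical lipid of myelin, differed by −4.27 ± 0.32 (SE), 19.3-fold lower in MPNST (adjusted p = 1.38e-08, limma). Cers2, a ceramide synthase for very long chains, differed by −0.85 ± 0.23 (adjusted p = 0.00522). Of 7 genes of the cytoskeleton and signalling, 5 were lower, 1 was higher and 1 was not called. Bcas1, a marker of newly myelinating cells, differed by −3.39 ± 0.70, Ndrg1, whose loss causes an inherited neuropathy, by −2.83 ± 0.28, and S100b, a calcium-binding protein of Schwann cells, by −2.43 ± 0.41 (adjusted p = 7.45e-04, 5.06e-07 and 1.32e-04). Gpr37, a receptor of glial cells, was higher by 2.28 ± 0.26 (adjusted p = 1.94e-06).

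The transcription factors went both ways, with 4 of 10 lower (the dim Nab1 included), 4 higher (the dim Pou3f1 included) and 2 not called. Egr2, the main activator of peripheral myelin genes, differed by −3.04 ± 0.34 (SE), 8.24-fold lower in MPNST (adjusted p = 1.58e-06, limma), and was still detected in all 12 MPNST at 9.48 to 11.33, against 11.85 to 14.05 in nerve. Pou3f2, a factor of the stage before myelination, differed by −1.59 ± 0.22 (adjusted p = 1.76e-05). Sox10, the factor that marks the Schwann lineage, was higher in MPNST by 1.11 ± 0.27 (adjusted p = 0.00269), and Sox2, a factor of immature Schwann cells, by 1.44 ± 0.24 (adjusted p = 1.38e-04). Jun, a factor of the repair state of Schwann cells, was not called (0.23 ± 0.18, adjusted p = 0.295). Sox2, Jun and Ncam1 are among 6 tested markers of non-myelinating or immature Schwann cells. Of these 6, 2 were higher, 1 was lower (Scn7a, −1.27, adjusted p = 0.00958, limma) and 3 were not called. Among all features, 24.6% were higher and 20.8% lower. Sox10 overlapped between the groups, at 11.89 to 12.93 in MPNST and 10.34 to 12.33 in nerve.

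**Figure D5:**
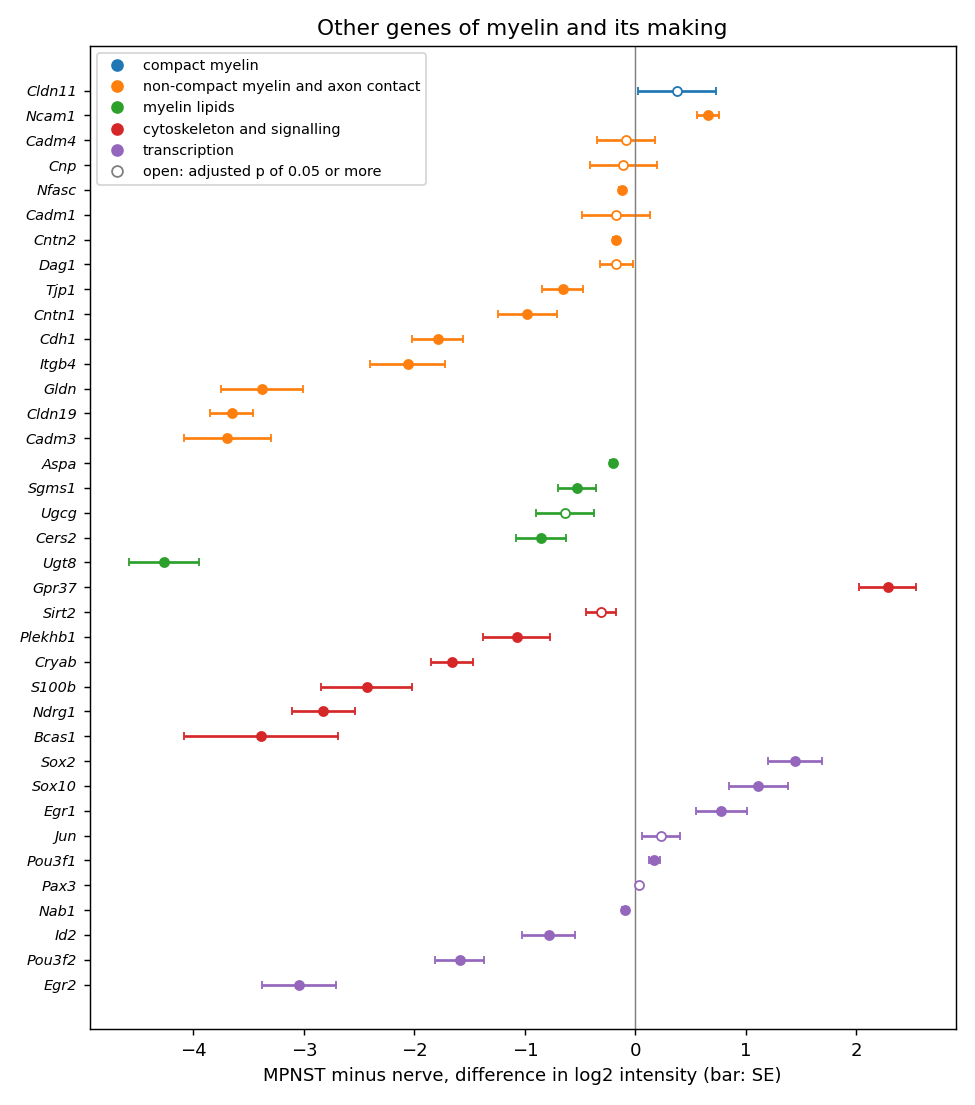
MPNST minus nerve difference in log2 intensity (horizontal axis) of 37 other genes of myelin, coloured by role, with SE bars; open points had an adjusted p of 0.05 or more. Of the 37, 22 were lower, with Ugt8 at −4.27, and Gpr37 was higher at 2.28.

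Markers of other cells also differed between MPNST and nerve, in both directions. The counts below stand beside 20.8% lower and 24.6% higher among all features. Over the 9 tested neuron and axon markers, 8 were lower in MPNST, among them Nefl, a neurofilament subunit, at −4.80 (adjusted p = 2.29e-04, limma), and the 9-gene mean level of 7.78 to 10.1 in MPNST lay below that of 12.6 to 13.6 in nerve. The mean of 4 macrophage genes was 10.7 to 12.5 in MPNST and 8.28 to 9.86 in nerve, and all 4 were higher in MPNST. Of 5 fibroblast and perineurium markers 4 were lower, among them Mfap5 at −2.89, and both endothelial markers tested were lower. Cdk1, the only 1 of 4 listed cell cycle genes that was tested, was higher by 3.97. Of 7 markers of the myelinating Schwann cell, 2 were analysed here, Egr2 and Cldn19, with a mean level of 8.38 to 9.33 in MPNST and 10.99 to 12.95 in nerve. Their part in the difference of the myelin genes was not tested.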

How the data were processed

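The 9 genes, the lists of other myelin genes and of cell type markers, and the tests were chosen with earlier results of these data known. The authors read the arrays with BeadStudio 3.0, per the submitters' processing notes. Per the file headers, the deposited raw table gives an average signal intensity for each probe and a detection p-value for each intensity. The authors also deposited intensity values after background subtraction and scaling, used as an alternative after a floor of 1. By a straight-line check, 17 of these 19 columns followed their own raw column, and those of nerve 5 and nerve 6 followed each other's, so labels were taken as each table gives them. Nerves were taken as untreated from their treatment tag, although their protocol text names ENU.

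Raw intensities were normalized with neqc in limma 3.58.1 (R 4.3.3), with an offset of 16. Probes were kept where detection p was under 0.05 for 6 or more of 19 arrays (11816 of 21791). The brightest probe per symbol was kept, which left 11796 features. Probes were named by the platform annotation, with 1 symbol for 13387 probes and none for 8404. The limma fit gave a coefficient to each of the 3 groups. The fit was checked on simulated data. Named genes were all 9 genes, the other myelin genes by role, and the 8 symbols most correlated over the 12 MPNST with the mean z score or with Mbp. Permutations were run in Python 3.11.15 with scipy 1.17.1. Labels do not say that nerve pools of a strain or tumours came from separate litters, so p-values measure the spread between these samples. Precision is limited by the number of arrays. Arrays were grouped into 8 low-background and 11 high-background arrays by their raw signal. Alternatives were median scaling, an offset of 50, no filter, a detection limit of 0.01, array weights, the authors' values, background range as a block and within each range, sex and strain as covariates, strains with nerve pools, a replicate block, and leaving out arrays. The averaged table of the nerve arrays was not used here.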

Additional observations from a re-analysis of the deposited data

Results flagged for a closer look

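The difference of Pmp22 between MPNST and nerve took different values in the strains that had 2 arrays of each tissue, from few arrays. It was 0.27 in BDIV arrays (14.76 in MPNST and 14.49 in nerve) and −0.63 in BDIX arrays (14.18 in MPNST and 14.81 in nerve), and an interaction term in limma put the gap at 0.96 ± 0.16 (SE, adjusted p = 0.0467, beside 8.82% of features called). All BDIV arrays and the BDIX nerve arrays were low-background, whereas both BDIX tumours were high-background, so strain and background range cannot be told apart in this gap. The same term was 2.60 ± 0.73 for Mbp (adjusted p = 0.121) and 1.12 ± 0.20 for Pllp (adjusted p = 0.0546), neither called. Pmp22 was the only call among the 9 genes, which does not set these genes apart from all features. The adjusted p of Pmp22 was close to the threshold. Unlike the other strain comparisons, the interaction was not repeated in the alternatives, so the dependence of this call on the processing was not tested.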

How the results depend on the processing

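Mal, Mbp, Pllp and Ermn stayed lower in MPNST than in nerve and past the threshold in every alternative with a test. The count of 8 lower genes was 7 to 8 when 1 array was left out, 4 within the low-background arrays and 5 without the F1 hybrids, fits with fewer arrays, 6 with sex and strain as covariates (all arrays, Pmp22 and Mog lost) and 7 with a detection limit of 0.01 or within the high-background arrays. The share of all features called was not counted in the alternatives, so the counts given for them stand without a background. Gjb1 turned sign within the high-background arrays (0.011), and Pmp22 within BDIV arrays (0.269). The 1 call of the microtumour against nerve became 0 in the authors' values, within the low-background arrays and without the F1 hybrids, 2 without nerve 2 and nerve 5, and stayed at 1 when any 1 array was left out. The 2 calls against MPNST became 1 with an offset of 50, no filter, the background block, no F1 hybrids, nerve 5 and nerve 6 averaged, or without MPNST 2 and MPNST 10 (both high in muscle Acta1, left out after seeing the data), 0 within the low-background arrays, and 1 to 2 when 1 array was left out. In the authors' values both calls were lost (Mal, adjusted p = 0.247, and Pllp, adjusted p = 0.107) and 1 other gene, Ermn, was called (3.45, adjusted p = 0.0375). Microtumour minus nerve turned sign for Pllp with median scaling (0.147), the authors' values (0.029), sex and strain (0.633) and without nerve 3 or nerve 4 (up to 0.041; without nerve 2 and nerve 5 it kept its sign at −0.47), and for Pmp22 with median scaling (−0.609) and the authors' values (−0.727). It turned for Mog in the authors' values (0.023) and without nerve 2 and nerve 5 (0.100, and down to −0.54 when 1 array was left out). For Gjb1 it turned with array weights (−0.0020), within the low-background arrays (−0.016), with the averaged pair (−0.00013), without nerve 2 and nerve 5 (−0.012) and when 1 array was left out (−0.0063 to 0.017). Microtumour minus MPNST turned for Mbp with the background block (−0.321) and within the low-background arrays (−0.137), for Mag with that block (−0.00078) and for Pmp22 in the authors' values (−0.054). The 22 lower other myelin genes were 12 and the 28 changed ones 16 within the low-background arrays, and the 6 higher ones were 3 within the high-background arrays. The 3 BDIV against BDIX nerve calls became 1 with median scaling, 0 with the authors' values, no filter or nerve 5 and nerve 6 exchanged, and 0 to 2 when 1 pool was left out. The 1 congenic against BDIX call became 0 in those settings, median scaling included, and 0 whenever 1 pool was left out. The 1 strain call in MPNST became 0 with median scaling, the authors' values, no filter or the background block, and 0 to 1 when 1 tumour was left out. The cause of these changes was not tested.

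With a replicate block over the arrays numbered 1 to 6 in both tissues 6 genes were lower: Mal differed by −5.52, Mbp by −4.52 and Pmp22 by −0.76, and Mog (−0.64, adjusted p = 0.187) and Mobp (−0.85, adjusted p = 0.101) lost their calls. The numbers do not pair the samples, since correlations of same-numbered deviations were −0.303 to 0.212. Each gene had 1 probe, so no probe could be tested against another of its gene, and Mag and Gjb1 were too dim for firm values.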
